A study of Mus musculus with 32 samples.

Results

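Microglia of SOD1G93A mice without LAG-3 were compared with microglia of SOD1G93A mice with LAG-3 at P140 (postnatal day 140), a late symptomatic stage, and every gene of the table was a member of the comparison. It rests on 6 libraries, 3 per genotype, of the 32 in the series, and 18669 of the 74016 genes listed passed the filter on low counts and were tested. All mice carried the human SOD1G93A transgene (B6.Cg-Tg(SOD1*G93A)1Gur/J), whose mutant protein causes amyotrophic lateral sclerosis and drives motor neuron loss. SOD1G93A/LAG-3-/- mice were homozygous for the targeted allele B6.129S6(Cg)-Lag3tm1Doi/J, and SOD1G93A/LAG-3+/+ mice came from the same crosses. The allele is disrupted in every cell from the germline on, so T cells and other cells of the mouse lacked LAG-3 as well as microglia. Cells were sorted as CD11b+/CD45int and their full-length cDNA was amplified with a SMART-seq kit. The sources do not say how many animals made up a library, and the p-values measure the spread between these libraries. Libraries of the same genotypes at P120 (3 and 3) shared the statistical model, and whole lumbar spinal cord at P140 (3 and 3) was fitted on its own.

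LAG-3 is an inhibitory receptor of the immunoglobulin superfamily, best known from T cells, where it binds MHC class II with higher affinity than CD4 does and restrains activation. Microglia are the resident macrophages of the spinal cord. In neurodegeneration many of them leave a homeostatic state marked by P2ry12, Tmem119 and Cx3cr1 and take on a disease-associated (DAM) state that depends on the receptor TREM2 and its adaptor TYROBP and is marked by Apoe, Spp1, Itgax, Clec7a and Axl.

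The libraries of the comparison did not fall into 2 groups by genotype. P140 libraries totalled 23981406 to 42822623 counts. On the first principal component of log2 CPM (read counts scaled to a common library total), SOD1G93A/LAG-3-/- replicate 1 lay at 59.0, near the SOD1G93A/LAG-3+/+ libraries at 68.1 to 134.6, whereas SOD1G93A/LAG-3-/- replicates 2 and 3 lay at -27.3 and -42.2, near the P120 libraries at -60.5 to -37.2. Longer transcripts ran lower in the first set. The slope of a library's log2 deviation on log2 transcript length was -0.63 to -0.36 in P140 SOD1G93A/LAG-3+/+ libraries, -0.29 in SOD1G93A/LAG-3-/- replicate 1, and 0.13 and 0.18 in replicates 2 and 3. Genes with at least 1 count numbered 18896 to 20489 in SOD1G93A/LAG-3+/+ libraries, 20260 in SOD1G93A/LAG-3-/- replicate 1, and 23896 and 23459 in replicates 2 and 3. The 12 markers of microglial identity summed to 30872 to 36600 CPM in SOD1G93A/LAG-3+/+ and 28296 to 36917 CPM in SOD1G93A/LAG-3-/- libraries. Neutrophil transcripts (13 genes) summed to 2985, 498 and 3.0 CPM in SOD1G93A/LAG-3+/+ replicates 1 to 3, and to 3.41, 835 and 5254 CPM in SOD1G93A/LAG-3-/- replicates 1 to 3. The 10 monocyte markers summed to 115 to 352 CPM against 151 to 1035 CPM, highest in SOD1G93A/LAG-3-/- replicate 3, and Xist and the Y-linked Ddx3y were both present there (26.3 and 96.3 CPM). The other 5 P140 libraries carried Xist at 91.8 to 98.8 CPM and Ddx3y at no more than 0.04 CPM, although 3 of these 5 are listed as male. Border macrophage markers summed to 91.8 to 124 CPM against 45.7 to 155 CPM with Cd163 at 0 in every P140 library, and T and NK cell markers to no more than 2.86 CPM. The sums for B cells were 383 to 472 against 285 to 410 CPM (Igkc at 0), for astrocytes 63.7 to 130 against 105 to 165 CPM, for oligodendrocytes 98.2 to 162 against 106 to 144 CPM, for neurons 0.83 to 14.9 against 1.77 to 9.26 CPM, for endothelial and mural cells 43.1 to 66.1 against 26.1 to 105 CPM, and for erythroid cells at most 2.34 CPM. What part these differences played in the results below was not tested. In sorted bulk samples, a change in the share of cells and a change in RNA per cell cannot be told apart.

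Lag3 itself (ENSMUSG00000030124, chr6:124881320-124888765 on the minus strand of GRCm39) checked the genotype labels. P140 SOD1G93A/LAG-3+/+ libraries held 676, 430 and 668 Lag3 counts and SOD1G93A/LAG-3-/- libraries 4, 1 and 10. Scaled by edgeR's TMM factors, these are 28.1, 24.5 and 25.7 CPM against 0.16, 0.02 and 0.34 CPM, so the groups lay far apart and every library matched its label. The log2 fold change, SOD1G93A/LAG-3-/- over SOD1G93A/LAG-3+/+ here and throughout, was -7.27 (SE 0.71, adjusted p = 0.00451). Adjusted p here and below are Benjamini-Hochberg values of edgeR's quasi-likelihood test. Within 10 Mb of Lag3, where DNA of the strain in which the allele was made can remain, 12 of 223 other genes tested were called higher and 3 lower. That is 6.73% of them, against 10.2% of all genes tested. The 3 called lower, Clec4a3, Ndufa9 and Clec7a, are members of gene lists below. Whether remaining DNA of that strain played a part in their levels was not tested.

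Across the genome, loss of LAG-3 went with more genes called higher than lower at P140. An adjusted p below 0.1 made a call, whatever the size of the change. There were 1347 called higher (7.22% of those tested) and 561 called lower (3.0%), and 1262 of the higher and 270 of the lower calls passed an absolute log2 fold change of 1. The median log2 fold change was 1.9 among genes called higher and -0.99 among genes called lower. In 1093 of the genes called higher all SOD1G93A/LAG-3-/- libraries exceeded all SOD1G93A/LAG-3+/+ libraries, and in 516 of the genes called lower all lay below. Over all genes tested 12.2% lay wholly above and 8.92% wholly below. Of the genes called higher, 162 had 3 or fewer counts over the SOD1G93A/LAG-3+/+ libraries together.

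SOD1G93A/LAG-3-/- replicate 1 moved least. Genes called higher lay a median of 1.10 log2 units above the SOD1G93A/LAG-3+/+ mean in that library and 2.54 and 2.77 above it in replicates 2 and 3. Genes called lower lay at -0.50, -0.78 and -0.76. The number of calls rose to 2439 higher and 1701 lower without replicate 1, and fell to 83 and 12 without replicate 2 and to 137 and 14 without replicate 3. Leaving out a SOD1G93A/LAG-3+/+ library gave 1787 and 822 (replicate 1), 573 and 90 (replicate 2), and 637 and 126 (replicate 3). With only the 6 P140 libraries edgeR called no gene at the same threshold (2407 genes at an unadjusted p under 0.05), whereas DESeq2 on those libraries called 1133 higher and 831 lower.

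Genes called higher were long. Their longest transcripts had a median of 5316.5 bases, against 2812 bases for genes called lower and 3257 bases for all genes tested. In the class above 6000 bases 16.1% of genes were called higher and 1.2% lower, with a median log2 fold change of 0.72. From 2000 to 4000 bases the shares were 3.37% and 4.57% and the median -0.13. When each library's dependence on transcript length and GC content was fitted and taken out as an offset, 607 genes were called higher (3.25%) and 811 lower (4.34%), 7.60% in all. The share of higher calls went from 70.6% to 42.8%. Of the calls above, 552 of the higher and 338 of the lower remained. Library totals without TMM factors moved the split the other way, to 2048 higher and 243 lower, with 89.4% of calls higher. RLE size factors gave 1275 and 837 (60.4%). The median log2 fold change of all genes was 0.14 with TMM factors, 0.06 with RLE factors, 0.47 without factors and 0.00 with the offset. For the gene groups below, counts with the offset are given as higher and lower calls after those without it. Calls in the 33 lists of microglial genes rested on few libraries. Without SOD1G93A/LAG-3-/- replicate 2 a list gave at most 2 calls higher and 0 lower, without replicate 3 at most 3 and 1, and without SOD1G93A/LAG-3+/+ replicate 2 or 3 at most 7 and 4.

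**Figure D1:**
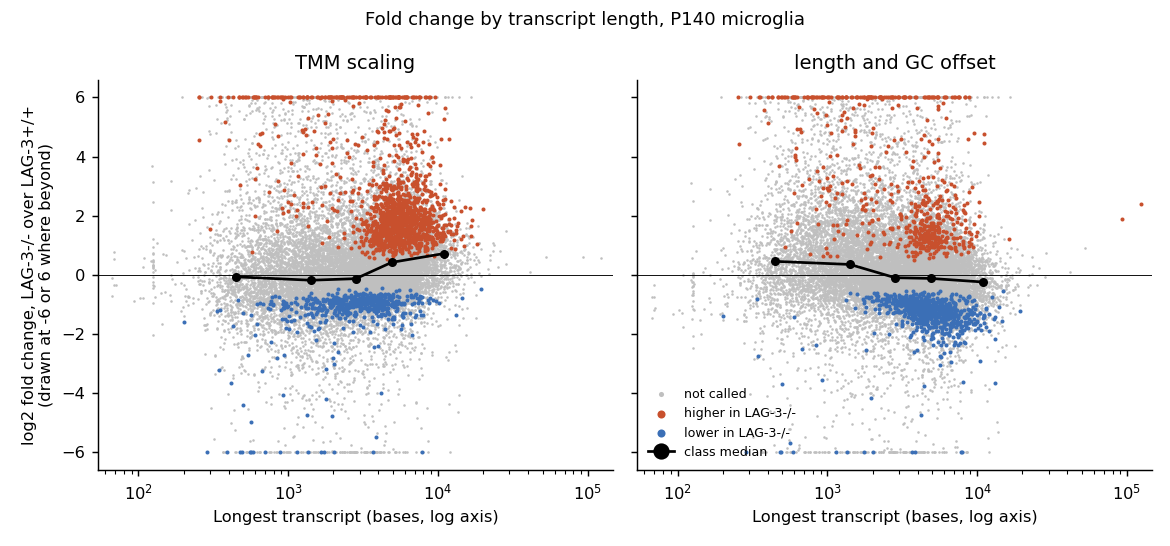
log2 fold change of each tested gene at P140 (vertical, SOD1G93A/LAG-3-/- over SOD1G93A/LAG-3+/+, values beyond 6 drawn at the edge) against its longest transcript (horizontal, bases, log axis), with TMM scaling on the left and with the length and GC offset on the right. Red and blue points are genes called higher and lower, grey points were not called, and black points are medians of 5 length classes, which rise to 0.72 above 6000 bases on the left and reach -0.24 there on the right.

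Large changes were ranked among called genes that averaged at least 10 CPM in the higher group, predicted and unnamed genes left out, and the rises were of genes nearly silent in SOD1G93A/LAG-3+/+ libraries. H6pd encodes an enzyme that makes NADPH in the endoplasmic reticulum. It read 0.29, 0.06 and 0.00 CPM in SOD1G93A/LAG-3+/+ and 13.2, 42.0 and 35 CPM in SOD1G93A/LAG-3-/- replicates 1 to 3. All 3 knockout libraries lay above, replicate 1 lowest, with a log2 fold change of 7.95 (SE 0.91, adjusted p = 0.00795). C2cd2l, a lipid transfer protein at contacts of the endoplasmic reticulum with the plasma membrane, read 0.29, 0.51 and 0.15 CPM against 4.93, 22.3 and 21.0 CPM (log2 fold change 5.68, SE 0.81, adjusted p = 0.0157). Both were called with each P140 library left out in turn, with log2 fold changes from 7.32 to 10.1 for H6pd and from 5.31 to 6.17 for C2cd2l.

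Abcb10, a transporter of the inner mitochondrial membrane, rose by a log2 fold change of 4.07 (1.25, 1.76 and 0.31 against 9.27, 23 and 23 CPM). Klhl12, a substrate adaptor of the ubiquitin ligase CUL3, rose by 4.94, Dclre1a, a nuclease of crosslink repair, by 4.81, and Phka1, a regulatory subunit of phosphorylase kinase, by 4.0. All 3 knockout libraries carried them, at 14.9 to 19.3 CPM for Klhl12, 15.7 to 21.4 CPM for Dclre1a and 8.36 to 12 CPM for Phka1, against at most 1.69 CPM in any SOD1G93A/LAG-3+/+ library. Tppp (4.5), Socs5 (4.38) and Capn15 (4.06) rose too, but their values in SOD1G93A/LAG-3-/- replicate 1 were 0.36, 1.42 and 0.32 CPM, inside or near the SOD1G93A/LAG-3+/+ range, and 13.2 to 27.3 CPM in replicates 2 and 3. Abcb10 was called with each P140 library left out. Klhl12, Dclre1a, Phka1, Tppp, Socs5 and Capn15 each lost the call in some of those fits. Their highest adjusted p there ran from 0.1295 (Klhl12) to 0.2805 (Tppp).

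The largest rise under this limit, a log2 fold change of 8.67 (SE 2.64, adjusted p = 0.0854), was of Ccr2, the chemokine receptor that marks monocytes. It rested on SOD1G93A/LAG-3-/- replicate 3, which read 36.6 CPM against 3.16 and 0.10 CPM in replicates 1 and 2 and at most 0.08 CPM in SOD1G93A/LAG-3+/+ libraries. Without that library the log2 fold change was 5.66 (adjusted p = 0.298), and the call was also lost without SOD1G93A/LAG-3-/- replicate 2 or any SOD1G93A/LAG-3+/+ library (adjusted p from 0.119 to 0.214). Of the 6 P140 libraries the same one was highest in the monocyte genes Ly6c2 and Chil3 and the macrophage gene F13a1, with 49.9, 358 and 99.9 CPM of its total counts.

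Among the falls under the same limit, Parvb stood next to Lag3. It encodes beta-parvin, an adaptor that links integrin-linked kinase to actin. Its level was 146, 93 and 260 CPM in SOD1G93A/LAG-3+/+ and 1.74, 5.87 and 3.46 CPM in SOD1G93A/LAG-3-/- libraries, a log2 fold change of -5.48 (SE 0.83, adjusted p = 0.0180), and it was called with each P140 library left out. Haus8, a subunit of the augmin complex of the spindle, read 179, 121 and 234 CPM against 45.8, 36.7 and 18 CPM (log2 fold change -2.41, adjusted p = 0.0205). Ppp1r16b, a regulatory subunit of protein phosphatase 1, read 46.2, 39.4 and 66.4 CPM against 12.3, 10.4 and 14.5 CPM (log2 fold change -2.03, adjusted p = 0.0205). These 3 genes were also lower in every P120 knockout library than in every P120 SOD1G93A/LAG-3+/+ library, with log2 fold changes there of -5.44, -2.32 and -1.47 that were not called (adjusted p of 0.118, 0.186 and 0.825).

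The other large falls lay between -2.44 and -1.84. They were of Pus3, which modifies tRNA, N6amt1, a methyltransferase that acts on a translation release factor, Pik3ip1, an inhibitor of PI3 kinase, Xrcc4, a factor of DNA end joining, and Tlcd2 and Mfsd3, membrane proteins. In each of them all SOD1G93A/LAG-3-/- libraries lay below all SOD1G93A/LAG-3+/+ libraries, as in 8.92% of all genes tested and in most genes called lower. Their adjusted p ran from 0.0334 (Mfsd3) to 0.0998 (Pik3ip1). Each of them lost the call in some fits with 1 P140 library left out. The highest adjusted p in those fits ran from 0.124 (Mfsd3) to 0.306 (Pik3ip1).

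Of 30 DAM markers tested, 1 was called higher (Axl) and 2 lower (Clec7a and the lysosomal membrane protein Cd68), and 22 had negative fold changes. That is 3.33% higher and 6.67% lower, against 7.22% and 3.0% of all genes. DESeq2 called 4 higher and 12 lower, edgeR called 5 and 11 without SOD1G93A/LAG-3-/- replicate 1, and no DAM marker was called without SOD1G93A/LAG-3-/- replicate 2 or 3 or SOD1G93A/LAG-3+/+ replicate 2 or 3. Their median log2 fold change was -0.55, against 0.14 over all genes. With the offset Axl was called higher and Trem2 lower, and the median was -0.34. Axl encodes a receptor tyrosine kinase that binds Gas6 on dying cells. It read 308, 175 and 157 CPM in SOD1G93A/LAG-3+/+ and 396, 1524 and 932 CPM in SOD1G93A/LAG-3-/- replicates 1 to 3. The groups did not overlap, with replicate 1 only just above the SOD1G93A/LAG-3+/+ libraries, and the log2 fold change was 2.15 (SE 0.49, adjusted p = 0.0406). It was 1.40 with the offset (adjusted p = 0.0890). Clec7a encodes Dectin-1, a receptor for beta-glucans, and lies within 10 Mb of Lag3. It read 1195, 1627 and 1662 CPM against 709, 638 and 462 CPM, again without overlap, for a log2 fold change of -1.31 (SE 0.39, adjusted p = 0.0795). With the offset this was -0.86 (adjusted p = 0.181). Both genes lost the call without SOD1G93A/LAG-3-/- replicate 2 or 3 or SOD1G93A/LAG-3+/+ replicate 2 or 3, with adjusted p from 0.115 to 0.259.

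The remaining DAM markers that the study names were not called. Itgax, the integrin CD11c, read 111, 117 and 111 CPM against 168, 321 and 205 CPM (log2 fold change 1.03, SE 0.34, adjusted p = 0.104), and was called without SOD1G93A/LAG-3-/- replicate 1 (adjusted p = 0.0470). Apoe, the most abundant of them, read 54972, 105410 and 66840 CPM against 42848, 37507 and 22027 CPM. Its log2 fold change was -1.15 (SE 0.62, adjusted p = 0.280), although all knockout libraries lay below. Spp1, osteopontin, also lay wholly below, at 10258, 18347 and 15502 against 8354, 6943 and 3944 CPM (log2 fold change -1.2, adjusted p = 0.187). Trem2 (-0.62) and its adaptor Tyrobp (-0.71) overlapped between genotypes, with adjusted p of 0.163 and 0.210. Trem2 was at 1092 to 2182 CPM in knockout and 1845 to 2856 CPM in SOD1G93A/LAG-3+/+ libraries. Without SOD1G93A/LAG-3-/- replicate 1 the adjusted p was 0.0221 for Trem2 and 0.0644 for Tyrobp. With the offset Trem2 was called lower, at a log2 fold change of -1.19 (adjusted p = 0.0829), and Tyrobp was not (-0.30, adjusted p = 0.510). The lipoprotein lipase gene Lpl (-0.11) and Cst7 (-0.57), which encodes an inhibitor of cysteine proteases, had adjusted p of 0.873 and 0.664.

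**Figure D2:**
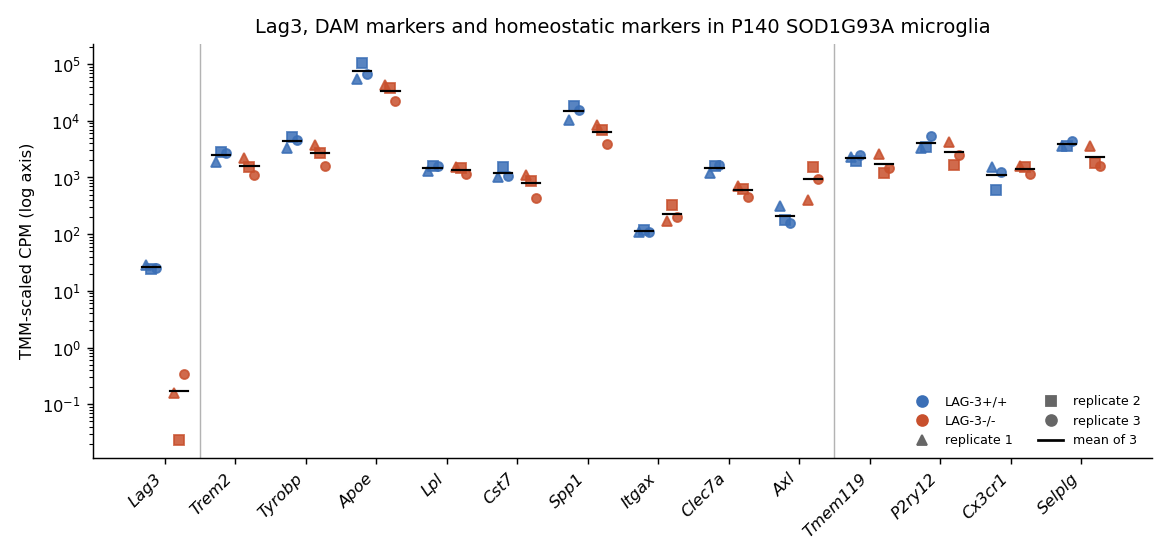
TMM-scaled CPM (vertical, log axis) of Lag3, 9 DAM markers and 4 homeostatic markers in the P140 libraries, with SOD1G93A/LAG-3+/+ in blue, SOD1G93A/LAG-3-/- in red, a symbol per replicate number and a bar at the mean of 3 libraries. Lag3 separates the genotypes entirely, Axl lies higher and Clec7a, Apoe and Spp1 lie lower in all knockout libraries, and the triangle of knockout replicate 1 is often close to the blue points.

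None of the 4 homeostatic markers that the study names was called. Tmem119 read 1980 to 2450 CPM in SOD1G93A/LAG-3+/+ and 1202 to 2607 CPM in SOD1G93A/LAG-3-/- libraries (log2 fold change -0.35, adjusted p = 0.628). P2ry12, a purinergic receptor that steers processes towards ATP, had a log2 fold change of -0.56 (adjusted p = 0.474), Cx3cr1, the fractalkine receptor, one of 0.35 (adjusted p = 0.478) and Selplg one of -0.72 (adjusted p = 0.208). On the longer list of 25, 7 (28%, against 7.22% of all genes) were called higher and 0 lower, and the median was -0.24. The 7 were Csf1r, Mertk, Tgfbr1, Adgrg1, Slco2b1, Golm1 and Sall1. DESeq2 called 7 higher and 6 lower, and edgeR without SOD1G93A/LAG-3-/- replicate 1 called 8 and 10. With the offset 3 were called higher and 2 lower. Slco2b1, an organic anion transporter, read 254, 133 and 260 CPM against 498, 844 and 805 CPM (log2 fold change 1.73, adjusted p = 0.0214, and 1.04 with the offset, adjusted p = 0.0460). Sall1, a transcription factor that keeps microglial identity, had a log2 fold change of 1.12 and 0.29 with the offset. Of 28 microglial transcription factors 5 (17.9%, against 7.22% of all genes) were called higher and 0 lower. With the offset 1 was called higher (Cebpa) and 2 lower (Irf8 and Irf5). Cebpa rose by 2.16, with 5.29 CPM in SOD1G93A/LAG-3-/- replicate 1, inside the 3.88 to 5.63 CPM of SOD1G93A/LAG-3+/+ libraries, and 38.9 and 20.9 CPM in replicates 2 and 3. Mef2a rose by 1.40 (0.65 with the offset, adjusted p = 0.286).

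MHC class II molecules present peptides to CD4+ T cells and are the classical ligand of LAG-3. All 12 genes of this list had negative fold changes at P140, with a median of -0.85, and 4 (33.3%, against 3.0% of all genes) were called lower and 0 higher. Transcripts of 3 genes of class II chains, H2-Aa, H2-Ab1 and H2-Eb1, were lower in every SOD1G93A/LAG-3-/- library. H2-Aa (alpha chain of I-A) read 86.2, 89.9 and 87.3 CPM against 44.2, 32.4 and 22 CPM, a log2 fold change of -1.42 (SE 0.39, adjusted p = 0.0656). H2-Ab1 (beta chain of I-A) read 222, 254 and 202 CPM against 168, 105 and 67.9 CPM, and H2-Eb1 (beta chain of I-E) 38.2, 36.3 and 41.1 CPM against 11.4, 12.9 and 4.94 CPM. Their log2 fold changes of -0.99 and -1.99 did not pass the test (adjusted p = 0.163 and 0.156). The 250 bases before the start of the canonical transcript are shown for these 3 genes, which lie side by side on chromosome 17. They were read from GRCm39 with GENCODE M39 transcript starts and are printed in the direction of transcription, with CCAAT or its reverse complement ATTGG in capitals.

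H2-Aa (chr17:34506798-34507047, minus strand): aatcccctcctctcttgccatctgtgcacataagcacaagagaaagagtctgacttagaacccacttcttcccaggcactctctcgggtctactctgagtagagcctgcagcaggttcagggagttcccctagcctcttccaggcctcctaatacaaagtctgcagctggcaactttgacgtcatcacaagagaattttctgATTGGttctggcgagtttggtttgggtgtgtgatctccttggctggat
H2-Ab1 (chr17:34481933-34482182, plus strand): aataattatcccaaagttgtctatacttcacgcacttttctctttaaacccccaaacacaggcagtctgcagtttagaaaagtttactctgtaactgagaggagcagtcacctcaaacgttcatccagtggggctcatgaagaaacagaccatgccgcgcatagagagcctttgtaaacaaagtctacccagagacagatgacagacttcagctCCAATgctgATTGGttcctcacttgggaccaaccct
H2-Eb1 (chr17:34524563-34524812, plus strand): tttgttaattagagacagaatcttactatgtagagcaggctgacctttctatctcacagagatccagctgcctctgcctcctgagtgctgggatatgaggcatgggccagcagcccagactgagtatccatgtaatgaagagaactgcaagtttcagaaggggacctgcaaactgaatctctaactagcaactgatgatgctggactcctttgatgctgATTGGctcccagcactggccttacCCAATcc

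Each of the 3 windows holds the letters CTGATTGG, with ATTGG starting 48, 27 and 31 bases before the start of H2-Aa, H2-Ab1 and H2-Eb1. CTGATTGG is the core of the Y box, where the factor NF-Y binds class II promoters. Searched on both strands, CTGATTGG was in 4.55% and CCAAT in 36.5% of 21757 such windows of protein-coding genes, and in 4 and 8 of the 13 windows of the class II list. CTGATTGG contains the reverse complement of CCAAT, so the counts overlap, and a match describes the letters only.

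The other called class II genes were H2-DMa and H2-DMb1, which form the chaperone that loads peptides, and Ciita, the transactivator of class II genes. H2-DMa read 515, 685 and 607 CPM against 482, 266 and 220 CPM (log2 fold change -0.90, adjusted p = 0.0739), and H2-DMb1 365, 455 and 433 CPM against 314, 169 and 152 CPM (log2 fold change -0.98, adjusted p = 0.0534). In both, SOD1G93A/LAG-3-/- replicate 1 lay just below the SOD1G93A/LAG-3+/+ libraries. Ciita was scarce, with 88 counts over the SOD1G93A/LAG-3+/+ and 1 count over the SOD1G93A/LAG-3-/- libraries (2.28, 0.06 and 1.23 CPM against 0.00, 0.02 and 0.00 CPM). Cd74, the invariant chain, overlapped between genotypes (442 to 621 against 312 to 494 CPM, adjusted p = 0.390). With the offset 3 genes of the list were called lower, H2-Aa, Ciita and Ctss, the protease that trims the invariant chain, and the median was -0.62. Called lower were 7 without SOD1G93A/LAG-3-/- replicate 1, 3 without SOD1G93A/LAG-3+/+ replicate 1, and 0 without any other single P140 library.

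**Figure D3:**
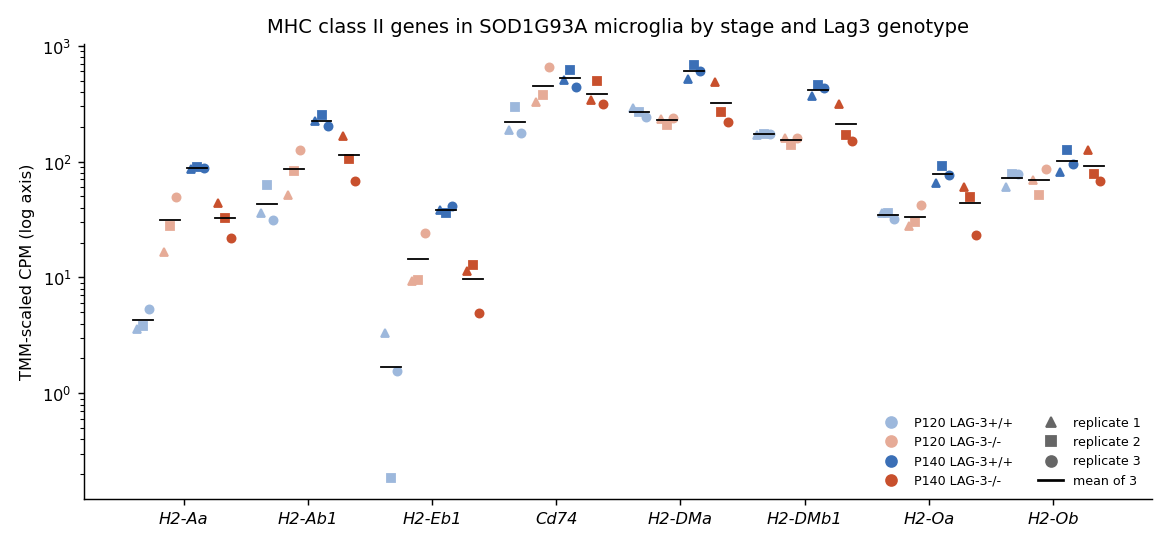
TMM-scaled CPM (vertical, log axis) of 8 MHC class II genes in the 12 microglia libraries by stage and genotype, with a symbol per replicate number and a bar at the mean of 3 libraries. H2-Aa lies higher in LAG-3-/- than in LAG-3+/+ libraries at P120 (16.7 to 49.5 against 3.56 to 5.38 CPM) and lower at P140 (22 to 44.2 against 86.2 to 89.9 CPM).

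Of 19 class I genes and their chaperones, 12 had negative fold changes and 2 were called higher, 10.5% against 7.22% of all genes. They were Calr, the chaperone calreticulin (207, 189 and 219 CPM against 258, 509 and 376 CPM, log2 fold change 0.89, and 1.12 with the offset), and H2-Q4, at 0.51 to 1.23 against 2.53 to 7.44 CPM, which shares sequence with neighbouring class I genes so that its counts are uncertain. The median was -0.25. With the offset 2 were called higher and 1 lower, and DESeq2 called 2 and 4. Of 22 immune checkpoint genes 2 (9.09%) were called higher and 3 (13.6%) lower, against 7.22% and 3.0% of all genes. With the offset the calls in this list were Sirpa higher and Pilra, Cd300a and Vsir lower. Sirpa, the receptor for the signal CD47, read 758, 554 and 504 CPM against 1160, 2465 and 1935 CPM (log2 fold change 1.61, SE 0.26, adjusted p = 0.0205) and was called with each P140 library left out and with the offset (0.83, adjusted p = 0.0537). Cd33, an inhibitory Siglec, rose by 0.67, but had a log2 fold change of -0.04 with the offset (adjusted p = 0.943). Pilra (-0.94), Cd200r1 (-1.34) and Cd86 (-0.74) fell.

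Genes of efferocytosis, the uptake of dying cells, gave 13 calls higher and 1 lower of 38 tested, with a median log2 fold change of 0.76. That is 34.2% higher against 7.22% of all genes. With the offset 8 were called higher and 4 lower and the median was -0.08. The receptors among the 13 were Mertk, Axl, Itgam, Itgav, Sirpa and Lrp1. Mertk, which like Axl binds bridging proteins on dying cells, read 110, 110 and 63.9 CPM against 159, 409 and 358 CPM (log2 fold change 1.71, adjusted p = 0.0293). Lrp1 rose by 0.97 without the offset and was called lower with it (-0.54). The engulfment machinery was represented by Dock2, an activator of RAC, which read 131, 81.0 and 83.0 CPM against 222, 467 and 360 CPM. It rose by a log2 fold change of 1.83 (SE 0.28, adjusted p = 0.0180), was called with each P140 library left out and rose by 0.96 with the offset.

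The small GTPases Rac1 and Arf6 rose by 2.91 and 3.76, yet not in every library. Rac1 read 32.7, 38.8 and 17.1 CPM in SOD1G93A/LAG-3+/+ and 30.4, 237 and 397 CPM in SOD1G93A/LAG-3-/- replicates 1 to 3. Arf6 read 2.62, 0.00 and 6.46 CPM against 4.85, 55.7 and 64.6 CPM. In both genes replicate 1 lay within the SOD1G93A/LAG-3+/+ range, and P120 libraries of both genotypes were at 304 to 479 CPM for Rac1 and 67.5 to 98.4 CPM for Arf6. For the whole list the calls were 19 higher and 4 lower without SOD1G93A/LAG-3-/- replicate 1, 2 and 0 without replicate 2, and 3 and 0 without replicate 3.

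The CSF1R and CSF2 receptor axis gave the highest share of higher calls, 5 of 10 genes (50%, against 7.22% of all genes). They were Csf1r, Csf2rb, Csf3r, Cbl and Stat5b, and the median of the list was 1.43. With the offset 0 of 10 were called (median 0.53). The 5 calls became 7 without SOD1G93A/LAG-3-/- replicate 1 or SOD1G93A/LAG-3+/+ replicate 1, 2 without SOD1G93A/LAG-3+/+ replicate 2 or 3, 1 without SOD1G93A/LAG-3-/- replicate 3 and 0 without its replicate 2. Csf1r, whose signal microglia need to survive, read 2258, 965 and 1674 CPM against 3727, 5560 and 4959 CPM. The groups did not overlap, and the log2 fold change was 1.54 (SE 0.28, adjusted p = 0.0282), or 0.60 with the offset (adjusted p = 0.115). TGF-beta signalling, which maintains microglial identity, gave 5 calls higher (Tgfbr1, Tgfbr2, Eng, Itgav and Ski) and 1 lower (Tgif1) of 26. That is 19.2% and 3.85%, against 7.22% and 3.0% of all genes. With the offset the calls were 0 and 1. Tgfbr2 read 133, 151 and 129 CPM against 190, 696 and 548 CPM (log2 fold change 1.80, and 0.59 with the offset, adjusted p = 0.168). Transcripts of the CSF1R axis and of TGF-beta signalling had median lengths of 4781 and 5984.5 bases.

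Toll-like receptors and adaptors gave 6 calls higher and 1 lower (Ly96, the partner of TLR4) of 23, with a median of 1.01, and 3 and 0 with the offset. Without the offset that is 26.1% and 4.35%, against 7.22% and 3.0% of all genes. Tlr13, a sensor of bacterial ribosomal RNA, read 83.9, 27.8 and 33.3 CPM against 157, 290 and 328 CPM. It rose by 2.42 (SE 0.40, adjusted p = 0.0206), by 2.11 with the offset (adjusted p = 0.0321), and was called with each P140 library left out. Tlr7 rose by 1.04 and Tlr4 by 1.21, also called with the offset, and Tlr3, Irak1 and Irak2 without it only. Matrix proteases gave 4 calls higher of 15 (26.7%), all ADAM sheddases, and 3 with the offset (Adam9, Adam10 and Adam17). Adam17, which releases TNF and TREM2 from the cell surface, read 145, 49.3 and 72.1 CPM against 212, 347 and 324 CPM (log2 fold change 1.73, adjusted p = 0.0309, and 1.2 with the offset, adjusted p = 0.0527). Adam9 rose by 2.05 (adjusted p = 0.0309).

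Inflammatory lists were called at shares below and above the 7.22% higher and 3.0% lower of all genes. Of 35 genes of cytokines and NF-kB feedback 0 were called in either direction by edgeR, with 3 higher and 5 lower at an unadjusted p under 0.05, and 2 higher and 7 lower by DESeq2 (0 and 1 with the offset). Il6 was at 4.40, 10.4 and 6.96 CPM against 0.63, 0.69 and 1.04 CPM without passing the test (adjusted p = 0.109). Of 25 chemokines and receptors 3 (12%) were called higher and 2 (8%) lower, and 2 and 1 with the offset. Of these genes 19 had negative fold changes, and the median was -0.84. Ccl22, a ligand of CCR4, had no counts in the SOD1G93A/LAG-3+/+ libraries and 3.79, 7.78 and 4.06 CPM in the knockout libraries (adjusted p = 0.0538), and the scavenger receptor Ackr3 likewise had none against 3.91, 1.5 and 1.65 CPM (adjusted p = 0.0558). No fold change is given for them. Ccl2 fell by 1.52 and Ccl9 by 1.15 on the log2 scale. Of 51 interferon-stimulated genes 2 (3.92%) were called lower, Slfn2 (-1.02) and the GTPase Irgm1 (-1.27), and 1 with the offset. In that list 37 fold changes were negative, the median was -0.53, and DESeq2 called 1 higher and 8 lower. Of 13 C-type lectins 2 (15.4%) were called lower, Clec7a and Clec4a3 (-0.89), and 0 with the offset. Both genes lie within 10 Mb of Lag3. Complement gave 2 higher of 17 (11.8%), and 2 higher and 2 lower with the offset. Those called higher included Itgam, a chain of complement receptor 3 (203, 247 and 255 CPM against 390, 771 and 786 CPM, log2 fold change 1.46), which was also called with the offset. None of 7 Fc gamma receptors, 18 heat shock chaperones or 3 LAG-3 ligands outside class II was called by edgeR. At an unadjusted p under 0.05 these lists held 1 higher and 3 lower, 2 and 1, and 0 and 1, and DESeq2 called the same numbers. With the offset edgeR called none of them.

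**Figure D4:**
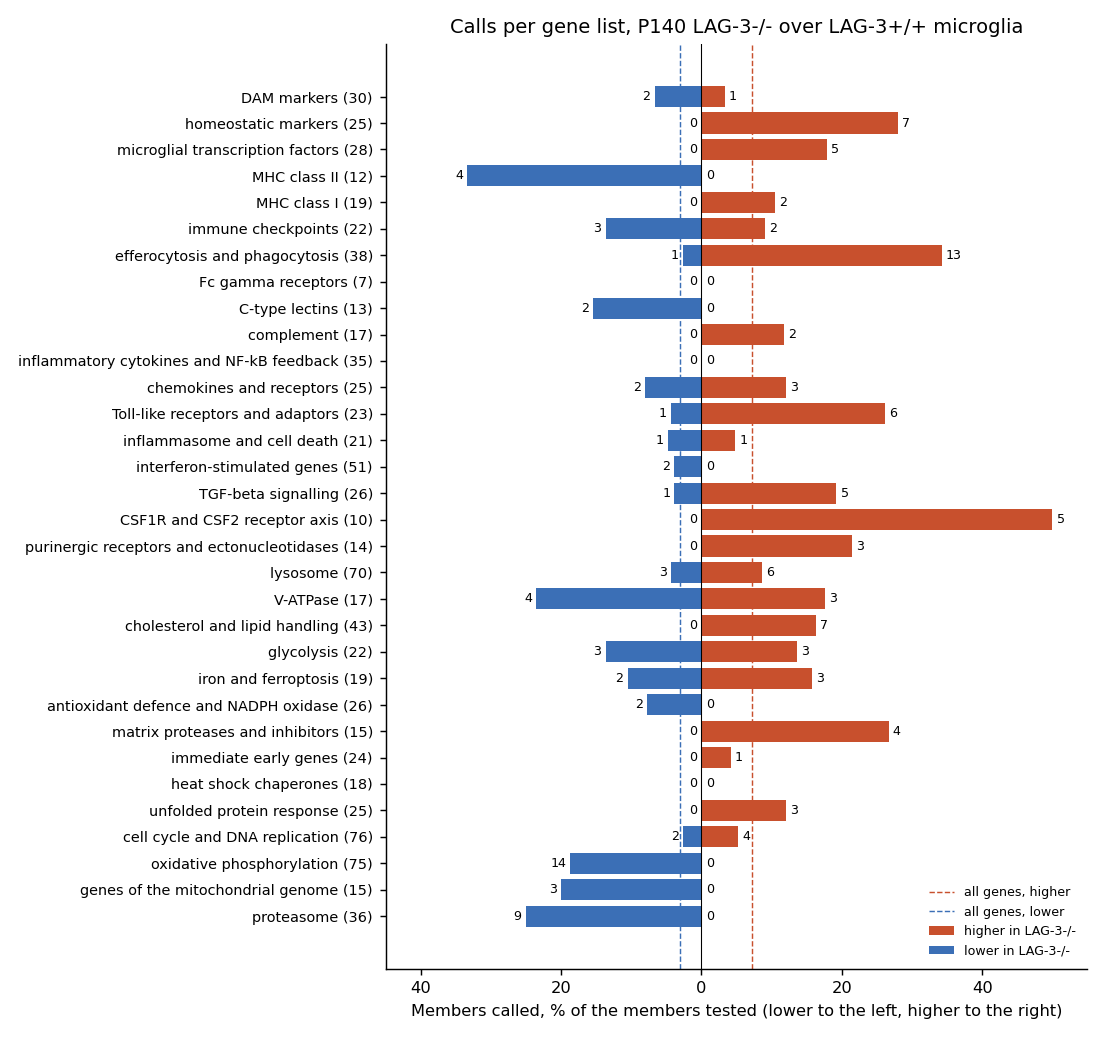
Share of the tested members called lower (blue, to the left) and higher (red, to the right) at P140 for each gene list with at least 7 members tested, with the number tested in brackets and the number called beside each bar. Dashed lines mark all genes tested (3.0% lower, 7.22% higher), and the lists that reach farthest are the CSF1R and CSF2 receptor axis (5 of 10 higher) and MHC class II (4 of 12 lower).

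Genes of energy metabolism and protein turnover were among those called lower. Of 75 nuclear genes of oxidative phosphorylation, which make up the respiratory chain and ATP synthase, 14 were called lower and 0 higher, 18.7% against 3.0% of all genes, and 74 had negative fold changes. Their median was -0.66, and with the offset 15 were called lower with a median of -0.58. Changes of single genes were small. Ndufv3, a subunit of complex I, read 89.6, 126 and 75.9 CPM against 53.1, 56.1 and 40.1 CPM (log2 fold change -0.96, adjusted p = 0.0578), and Ndufa8 126, 221 and 179 CPM against 121, 83.6 and 75 CPM (-0.91, adjusted p = 0.0600). The list gave 52 calls lower without SOD1G93A/LAG-3-/- replicate 1, 22 without SOD1G93A/LAG-3+/+ replicate 1, 1 without SOD1G93A/LAG-3+/+ replicate 3 and 0 without any other P140 library. Of 15 genes of the mitochondrial genome 3 (20%, against 3.0% of all genes) were called lower (mt-Cytb, mt-Co1 and mt-Co3, from -0.99 to -0.76). With the offset 1 of the 15 was called higher and 0 lower, and their median went from -0.38 to 0.29.

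Proteasome subunits gave 9 calls lower and 0 higher of 36 (25.0% lower, against 3.0% of all genes), and 10 with the offset, with medians of -0.69 and -0.47. Lower calls numbered 26 without SOD1G93A/LAG-3-/- replicate 1, 0 without its replicate 2 and 1 without its replicate 3, and 11, 2 and 4 without SOD1G93A/LAG-3+/+ replicates 1, 2 and 3. Psmd7, a subunit of the lid, read 212, 249 and 213 CPM against 134, 90.9 and 79.1 CPM. The groups lay apart, with a log2 fold change of -1.15 (SE 0.20, adjusted p = 0.0235) and -1.32 with the offset (adjusted p = 0.0340). The ATPase Psmc4 read 199, 250 and 265 CPM against 156, 123 and 108 CPM (-0.88, adjusted p = 0.0331). Glycolysis gave 3 calls higher (Hk1, Pdk1 and Pfkfb3) and 3 lower (Eno1, Aldoa and Ldhb) of 22. That is 13.6% each, against 7.22% and 3.0% of all genes. With the offset the calls were 0 and 6.

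Lysosomal genes were called at shares near those of all genes. Of 70 tested 6 (8.57%) were called higher (among them Gaa, Arsb, Idua, Arsa and Man2b1) and 3 (4.29%) lower (Aga, Ctsc and Cd68), with a median of -0.08, and 1 and 11 with the offset. Aga, which cleaves asparagine-linked sugars, read 178, 280 and 263 CPM against 142, 109 and 110 CPM (-1.0, adjusted p = 0.0380). Of 17 subunits of the V-ATPase, the proton pump of lysosomes, 3 were called higher (Atp6v0a1, Atp6v0a2 and Atp6v1a) and 4 lower (Atp6v0b, Atp6v1d, Atp6v1f and Atp6v1g1). That is 17.6% and 23.5%, against 7.22% and 3.0% of all genes. With the offset the calls were 1 and 5. Atp6v0a1 rose by 2.14 and Atp6v1g1 fell by 1.10 on the log2 scale, and both were called with the offset.

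Cholesterol and lipid genes gave 7 calls higher (16.3%) and 0 lower of 43, and 2 and 1 with the offset. Those called higher included the transcription factor Srebf1 (1.79, and 0.99 with the offset, adjusted p = 0.0743), Hmgcs1 (1.44), Scd2 (1.71) and Abca1, which exports cholesterol (1.29, and 0.29 with the offset, adjusted p = 0.595). Of 76 cell cycle genes 4 (5.26%) were called higher and 2 (2.63%) lower, and 2 and 1 with the offset. The shares without the offset were below the 7.22% and 3.0% of all genes. Mki67, a marker of dividing cells, read 12, 3.07 and 3.65 CPM against 15, 95.8 and 47.5 CPM (log2 fold change 3.08, adjusted p = 0.0496). The unfolded protein response gave 3 calls higher of 25 (Sel1l, Canx and Calr), purinergic signalling 3 of 14 (P2rx7, P2ry6 and Adora1) and immediate early genes 1 of 24 (Klf6), with 0 lower in each, and 2, 1 and 0 higher with the offset. Without the offset the shares higher were 12%, 21.4% and 4.17%, against 7.22% of all genes. Iron and ferroptosis gave 3 higher (Acsl4, Aco1 and Ncoa4) and 2 lower (Slc3a2 and Ftl1) of 19 (0 and 1 with the offset), antioxidant defence and NADPH oxidase 0 and 2 of 26 (Ncf4 at -0.93 and Cyba at -0.89, subunits of the phagocyte oxidase, and 0 and 2 with the offset), and inflammasome and cell death 1 and 1 of 21 (Naip2 at 1.69 and Ninj1 at -0.88, and 0 and 1 with the offset). In these lists the shares higher and lower without the offset were 15.8% and 10.5%, 0% and 7.69%, and 4.76% and 4.76%.

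At P120, in libraries that share nothing with the P140 comparison beyond the estimate of spread, the knockout gave 0 genes called higher and 2 lower (0.0107% of those tested) by edgeR. At an unadjusted p under 0.05 there were 196 and 355, and DESeq2 called 35 and 99. The 2 were Lag3 and the unnamed gene Gm30890, and both were lower at P140 too, the only genes called at both stages. Gm30890 was chosen after its values were seen. It read 174, 138 and 291 CPM in P140 SOD1G93A/LAG-3+/+ and 27.5, 13.2 and 23.2 CPM in P140 SOD1G93A/LAG-3-/- libraries. The difference between the 2 stages was tested as an interaction, which called 32 genes (0.171%), 30 with a more positive effect at P140 and 2, H2-Aa and Sec61a2, with a more negative one. DESeq2 called 1301, and edgeR called 0 with listed sex, Y-linked transcripts, the neutrophil list or the replicate number in the model (1299 to 2349 at an unadjusted p under 0.05). Of the 32, 31 were also called at P140, 27 had transcripts over 4000 bases, and 13 had 3 or fewer counts over the P140 SOD1G93A/LAG-3+/+ libraries.

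Caprin1, an RNA-binding protein of stress granules and a gene named after its values were seen, illustrates the positive set among well expressed genes. It read 66.3, 52.9 and 57.8 CPM in P140 SOD1G93A/LAG-3+/+ and 183, 219 and 244 CPM in P140 SOD1G93A/LAG-3-/- libraries. At P120 the values were 237, 213 and 230 CPM against 228, 260 and 197 CPM. The P140 SOD1G93A/LAG-3+/+ libraries thus stood below the other 9, and the interaction was 1.86 (SE 0.25, adjusted p = 0.0374). H6pd showed the same order, with 23.5 to 54.5 CPM in P120 libraries of both genotypes (interaction 7.86, SE 1.08, adjusted p = 0.0374), and so did C2cd2l, with 8.64 to 29.7 CPM at P120 (5.78, SE 1.01, adjusted p = 0.0908).

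H2-Aa turned. At P120 it read 3.56, 3.83 and 5.38 CPM in SOD1G93A/LAG-3+/+ and 16.7, 27.9 and 49.5 CPM in SOD1G93A/LAG-3-/- libraries (log2 fold change 2.88, adjusted p = 0.107), so that neither stage's groups overlapped and the directions were opposite. The interaction was -4.30 (SE 0.56, adjusted p = 0.0374). Sec61a2, a channel subunit of the endoplasmic reticulum named after its values were seen, read 75.7, 128 and 80.4 CPM against 34.3, 33.1 and 34.6 CPM at P140 and 18.6, 31.1 and 33.3 CPM against 43.6, 48.3 and 44.4 CPM at P120. The interaction calls rested on single libraries. Their number was 0 without P140 SOD1G93A/LAG-3-/- replicate 2 or 3, 0 or 1 without any of the P120 libraries, 1713 without P140 SOD1G93A/LAG-3-/- replicate 1 and 397 without P140 SOD1G93A/LAG-3+/+ replicate 1. Parvb, Haus8 and Ppp1r16b had interactions of -0.04, -0.09 and -0.56 with adjusted p from 0.617 to 0.998.

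**Figure D5:**
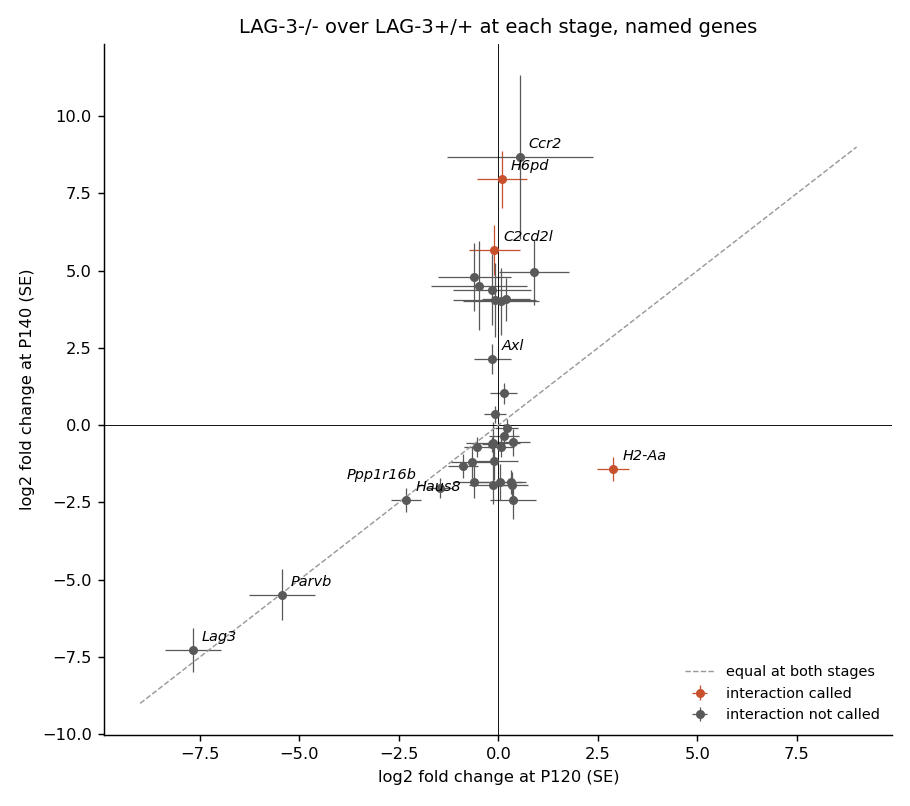
log2 fold change of LAG-3-/- over LAG-3+/+ microglia at P140 (vertical) against that at P120 (horizontal) for Lag3, the 13 DAM and homeostatic markers, the largest P140 rises and falls and H2-Aa, with standard errors as bars and a dashed line where both are equal. Lag3, Parvb and Haus8 lie near the line, H6pd and C2cd2l rise at P140 only, and H2-Aa lies at 2.88 at P120 and -1.42 at P140.

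In whole lumbar spinal cord at P140 the same genotypes gave 4096 genes called higher and 4234 lower of 17702 tested (47.1%). All 3 cord SOD1G93A/LAG-3+/+ libraries carried Xist without Ddx3y, and 2 of the 3 SOD1G93A/LAG-3-/- libraries carried Ddx3y without Xist, so genotype and this pattern cannot be fully told apart there. Lag3 fell from 74.5, 43.4 and 61.4 CPM to 5.72, 5.60 and 5.50 CPM (log2 fold change -3.41, adjusted p = 4.34e-05). Clec7a was lower in the cord too (-1.73, adjusted p = 0.00453), and the same DNA around Lag3 can remain in those mice. Axl, higher in P140 knockout microglia, was lower in the knockout cord, at 252, 204 and 249 CPM against 151, 118 and 152 CPM (-0.74, adjusted p = 0.00180). Itgax (-1.33), Cst7 (-1.14), Spp1 (-0.74), Lpl (-0.58) and Cx3cr1 (-0.56) fell and Tmem119 rose (0.40, and -0.02 with the offset) in the cord, whereas Trem2, Tyrobp, Apoe, P2ry12 and Selplg were not called (adjusted p from 0.826 to 0.987). With the offset Tyrobp was called lower in the cord (-0.91, adjusted p = 0.0140).

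Of the genes with the largest changes in microglia, H6pd (-0.62), Dclre1a (-0.57), Phka1 (-0.37, and 0.12 with the offset), Tppp (-0.29) and Capn15 (-0.28) were higher in P140 knockout microglia and called lower in the knockout cord. Haus8 (0.65), Mfsd3 (0.76) and Pik3ip1 (0.27, and -0.04 with the offset) were lower in microglia and called higher in the cord. Parvb was not called in the cord (-0.27, adjusted p = 0.153), nor was H2-Aa (0.12, adjusted p = 0.905). The cord and microglia tables were normalized separately, so their levels are not compared.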

How the data were processed

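RNA-seq of CD11b+/CD45int microglia was analysed for both genotypes (SOD1G93A/LAG-3+/+, and SOD1G93A/LAG-3-/- as the knockout) at P120 or P140, with 3 libraries in each group, and RNA-seq of lumbar spinal cord at P140 with 3 in each. The authors trimmed reads with Trim Galore 0.6.7, quantified them with Salmon 1.9.0 on GRCm39 and imported them into R 4.2.1 with tximport, per the submitters' notes and the paper's methods. The tables deposited by the authors hold estimated counts per Ensembl gene, not whole and not normalized, and the annotation release is not given in the sources used here. Counts were rounded to whole numbers. Gene names, positions and transcript lengths are those of GENCODE M39 on GRCm39, which lacked 66 of 74016 identifiers with 0.0514% of the counts.

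The 12 microglia libraries were fitted as 4 groups in edgeR 4.0.16 under R 4.3.3. Genes were kept by filterByExpr at a minimum count of 10 and a minimum total of 15, scaled by TMM, and tested by quasi-likelihood F with robust estimation. The 6 cord libraries were fitted in the same way on their own. The common dispersion of the microglia fit was 0.603. P-values were adjusted by the Benjamini-Hochberg method over all genes tested, with 0.1 as the limit for a call. The SE of a log2 fold change was derived from its F statistic. Depth was 23981406 to 42822623 counts per P140 library, and counting error is small beside the spread between libraries for the genes named, except those at a few counts. Sums over marker lists are CPM of library totals without TMM factors. Groups come from the library titles.

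The genes named are Lag3, the DAM and homeostatic markers that the study names, the 10 largest rises and 10 largest falls among called genes averaging at least 10 CPM in the higher group (predicted and unnamed genes left out), and the 2 members of each list with the smallest adjusted p, and other genes appear as called members of a list. Some genes that this rule names are not reported here. Dixon's test needs groups of 4 or more and was not run. All columns of the tables used were assigned to a sample. The lists and the comparison were chosen with earlier results of these data known. Fcrls and Tmem55b of the lists had no match in the table. Alternatives were DESeq2 1.42.0, other scalings, filters and thresholds, covariates, an offset for transcript length and GC content (natural splines, 4 df), the replicate number as a block, fits of the P140 libraries alone and each library left out. The Y-linked covariate and DESeq2 on the P140 libraries alone were chosen after seeing the data. The fit was also run on simulated counts, with a spread set below that of these data and no dependence on transcript length. That run therefore does not measure the error of the calls made here. The table of LAG-3-sorted microglia was not used here.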

Additional observations from a re-analysis of the deposited data

Results flagged for a closer look

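The effect of LAG-3 loss differed between P120 and P140 in 32 genes by the test of the difference itself (edgeR's quasi-likelihood test of the genotype-by-stage interaction, adjusted p under 0.1). Among the genes named above these were H6pd, with an interaction of 7.86 (SE 1.08, adjusted p = 0.0374), C2cd2l, with 5.78 (SE 1.01, adjusted p = 0.0908), and H2-Aa, with -4.30 (SE 0.56, adjusted p = 0.0374) on the log2 scale. In H6pd and C2cd2l the P140 SOD1G93A/LAG-3+/+ libraries stood below the other 9 libraries. In H2-Aa the SOD1G93A/LAG-3+/+ libraries read 3.56 to 5.38 CPM at P120 and 86.2 to 89.9 CPM at P140. The SOD1G93A/LAG-3-/- libraries overlapped between the stages, at 16.7 to 49.5 CPM and 22 to 44.2 CPM. H6pd and C2cd2l have transcripts of 5393 and 5513 bases, the lengths at which P140 SOD1G93A/LAG-3+/+ libraries ran low, and the part of transcript length in these interactions was not tested gene by gene. With the length and GC offset 9 interactions were called in all.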

How the results depend on the processing

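Higher and lower calls at P140 (1347 and 561) and interaction calls (32) numbered 527, 115 and 8 at an adjusted p under 0.05, 2370, 1911 and 1301 with DESeq2, 607, 811 and 9 with the length and GC offset, and 610, 156 and 0 with Y-linked transcripts as a covariate. Lower calls alone were 270 with an absolute log2 fold change above 1. Without TMM factors the P140 calls were 2048 and 243. Lower and interaction calls were 265 and 179 with no low-count filter, 336 and 0 with listed sex as a covariate, and 1011 and 0 with the neutrophil list as a covariate. RLE factors gave 14 interactions. On the P140 libraries alone edgeR gave 0 and 0 and DESeq2 1133 and 831. The edgeR fits without an interaction call still held 2349 (listed sex), 1299 (neutrophil list) and 1760 (Y-linked) at an unadjusted p under 0.05. With the replicate block the P140 calls were 626 and 188 and the interactions 0 (2218 at an unadjusted p under 0.05). Same-numbered P140 libraries did not deviate together (r of -0.29, -0.09 and -0.18 between genotypes). Whether they shared a litter or a sorting day cannot be told from this, and the sources do not say. Leaving out each library in turn gave 83 to 2439 higher calls, 12 to 1701 lower calls and 0 to 1713 interactions. Of 75 named genes called in P140 microglia, 10 were called without each P140 library in turn, and the same number under every alternative except the P140 libraries alone. The causes of these shifts were not tested.

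Among P140 microglia log2 fold changes of the genes that the naming rule picked, those that changed sign had not been called, except Cd33. Outside that rule, Lrp1 was called higher without the offset and lower with it. They were Lpl without TMM factors (0.21) and with Y-linked transcripts (0.0021), Cst7 (0.044), Cx3cr1 (-0.065) and Cd33 (-0.037) with the offset, Mmp9 with the replicate block (-2.05) and the neutrophil list (-0.72), and Snap25 with the replicate block (0.11). Leaving out 1 library gave -0.21 to 0.020 for Lpl, -2.00 to 0.13 for Aplp1, -1.34 to 2.32 for Mmp9, -2.22 to 13.1 for F13a1, -0.24 to 3.0 for Gad1, -1.16 to 1.53 for Snap25 and -0.61 to 0.012 for Pecam1. Aldh1l1 and Mal gave no value without 1 of the libraries, being at 0 in the rest.

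In the cord, Trem2 was 0.0014 with DESeq2, 0.000351 with RLE factors and 0.045 with the offset. Tyrobp was -0.13 without TMM factors, -0.026 with no filter, -0.00775 with listed sex, -0.00251 with the replicate block and -0.91 with the offset. Only with the offset was this sign change of Tyrobp called (adjusted p = 0.0140). With the offset Tmem119 was -0.015, Socs5 0.084, Phka1 0.12, Pik3ip1 -0.039 and Ppp1r16b 0.062. Without TMM factors Klhl12 was -0.11 (-0.016 with no filter), Abcb10 -0.042, Xrcc4 -0.033 and Pus3 -0.088. Leaving out 1 library gave -0.25 to 0.16 for Trem2, -0.20 to 0.18 for Tyrobp, -0.31 to 0.10 for Apoe, -0.20 to 0.089 for P2ry12, -0.21 to 0.059 for Selplg, -0.025 to 0.061 for Klhl12, -0.50 to 0.026 for Tlcd2 and -0.034 to 0.11 for Pus3.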
